A study of Mus musculus with 6 samples.

Results

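The blood vessels of the hindbrain were followed through 35 genes that mark endothelial and mural cells, measured in RNA from a brainstem and cerebellum dissection. The genes were taken by name, whatever their values. Every array probe named as a listed gene, by accession or otherwise by symbol or synonym, was taken. This gave 53 of the 56605 probes of the array. The compared groups were 3 transgenic samples, labelled MSA Transgenic, and 3 wild-type samples, all from mice aged 16 weeks. Both genotypes carry the same strain label, which names C57BL/6, 129 and C3H. The labels do not say what MSA stands for, which transgene or promoter the mice carry, or their sex. Nor is it stated that every sample was a separate animal, and p-values then measure only a spread between samples that may be technical. Each sample was hybridised to 1 single-colour array, and levels are given as log2 of the signal relative to that array's 75th percentile, so a level of 0 equals that percentile.

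Endothelial cells line the vessels, and in the brain they form the blood-brain barrier. Tight junctions seal the gaps between the cells, transporters carry glucose, amino acids, lipids and hormones across them, and efflux pumps return drugs and other compounds to the blood. Mural cells sit around the endothelium: pericytes on capillaries, and contractile smooth muscle cells on arterioles and arteries. They exchange signals with the endothelium through platelet-derived growth factor, angiopoietin, TGF-beta and Notch pathways.

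Each probe is a 60-base oligonucleotide, and the values below are only as specific as its bases. Of the 53 probes, 52 shared at most 17 bases in a row with a probe of another gene, on either strand. Only the probes of the array were compared. A match to a stretch of another transcript that no probe covers would not be found, so specificity against transcripts was not tested. Probes of Sox17 and Acta2 are shown because tested probes of these genes ordered the samples differently, and that of Tie1 because it had the smallest p among the 35 genes. They are given 5′ to 3′, with the longest run that also occurs in another gene's probe in capitals. The first Sox17 probe maps to chr1:4481890-4481949 and the second to chr1:4482700-4483190. The Acta2 probe maps to chr19:34322995-34326249 and the Tie1 probe to chr4:118144132-118144191. All 4 lie on the minus strand of mouse build mm9, and a span longer than 60 bases means that the probe's bases are split over separate genomic stretches. Exon and UTR boundaries on mm9 were not used here.
Sox17 probe A_51_P273667: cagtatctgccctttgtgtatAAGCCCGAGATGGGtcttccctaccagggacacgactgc
Sox17 probe A_55_P2728222: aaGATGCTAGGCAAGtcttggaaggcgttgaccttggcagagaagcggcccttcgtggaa
Acta2 probe A_51_P450957: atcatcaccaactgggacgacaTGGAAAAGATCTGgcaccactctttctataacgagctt
Tie1 probe A_51_P177171: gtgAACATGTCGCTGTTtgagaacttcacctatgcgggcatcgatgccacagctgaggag

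The exception was the Ly6c1 probe at chr15:74875495-74875554, which shared 48 bases in a row with the probe of its neighbour Ly6c2 at chr15:74938637-74938695. Counted from 1 at the 5′ end, the substitutions between the Ly6c1 and the Ly6c2 probe were G8C, A57G and C60T. Bases 31 to 60 of each follow, with the differing bases in capitals. A second Ly6c1 probe at chr15:74877785-74877844 shared no such run and comes after them, its capitals again marking its longest shared run.
Ly6c1 probe A_55_P2064771, bases 31 to 60: tctggggtcctgcagggttcccatgtAtgC
Ly6c2 probe A_51_P197528, bases 31 to 60: tctggggtcctgcagggttcccatgtGtgT
Ly6c1 probe A_55_P1961499: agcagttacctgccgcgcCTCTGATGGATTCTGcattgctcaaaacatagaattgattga

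The array of wild-type replicate 1 stood apart. It was alone on slide 1, while the other 5 arrays shared slide 2. Its 75th percentile was 406 intensity units, against 535 to 609 on the others. It correlated at 0.974 to 0.978 with the other arrays, which correlated at 0.991 to 0.996 among themselves. Among all tested genes, this array held the highest or lowest of the 6 values in 65.9%, and among the 35 vascular genes in 65.7%. For that reason each result was also computed with slide as a block, a fit in which the 3 transgenic arrays meet the 2 wild-type arrays of slide 2.

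All 35 genes were well above background on all 6 arrays, so the defining markers of endothelium and of mural cells were detected in every sample. None was called different between genotypes by limma (Benjamini-Hochberg adjusted p under 0.05 over 24932 genes), where 0.0441% of all genes were called, 0.0361% higher and 0.00802% lower. The adjusted p of the 35 genes lay between 0.769 for Tie1 and 0.995 for Anpep. At an unadjusted p under 0.05 there was 1 gene, Tie1, which was lower, against 5.86% of all genes (3.15% higher and 2.71% lower). With slide as a block there were 0 calls as well, 2 genes at an unadjusted p under 0.05 (Tie1 and Sox17) and a lowest adjusted p of 0.546. In bulk tissue, fewer cells of a type and less RNA per cell cannot be told apart, which applies to every level given here.

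The differences were small for most of these genes. The log2 difference, transgenic minus wild type, was under 0.2 in size for 31 of the 35 genes, and its standard error lay between 0.073 and 0.54 with a median of 0.12. The 95% interval lay inside a 1.5-fold change either way for 31 genes, which was so for 61.3% of all tested genes. The exceptions were Cldn5, Tek, Sox17 and Tagln. Inside a 2-fold change either way lay 34 of the intervals, all but that of Sox17, against 82.5% of all genes. In direction, 14 genes were higher and 21 lower, where 49.9% of all genes were higher and 50.1% lower. The median difference was -0.064 over the 35 genes and -0.00049 over all genes. With slide as a block 13 were higher and 22 lower, the median was -0.037, and 28 kept their sign.

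The 3 values of each genotype did not overlap for 5 of the 35 genes, a share close to the 14.9% of all genes. Those lower in the transgenic samples were Cldn5, Tie1 and Eng (7.5% of all genes), and those higher were Slc2a1 and Vtn (7.4% of all genes).

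**Figure D1:**
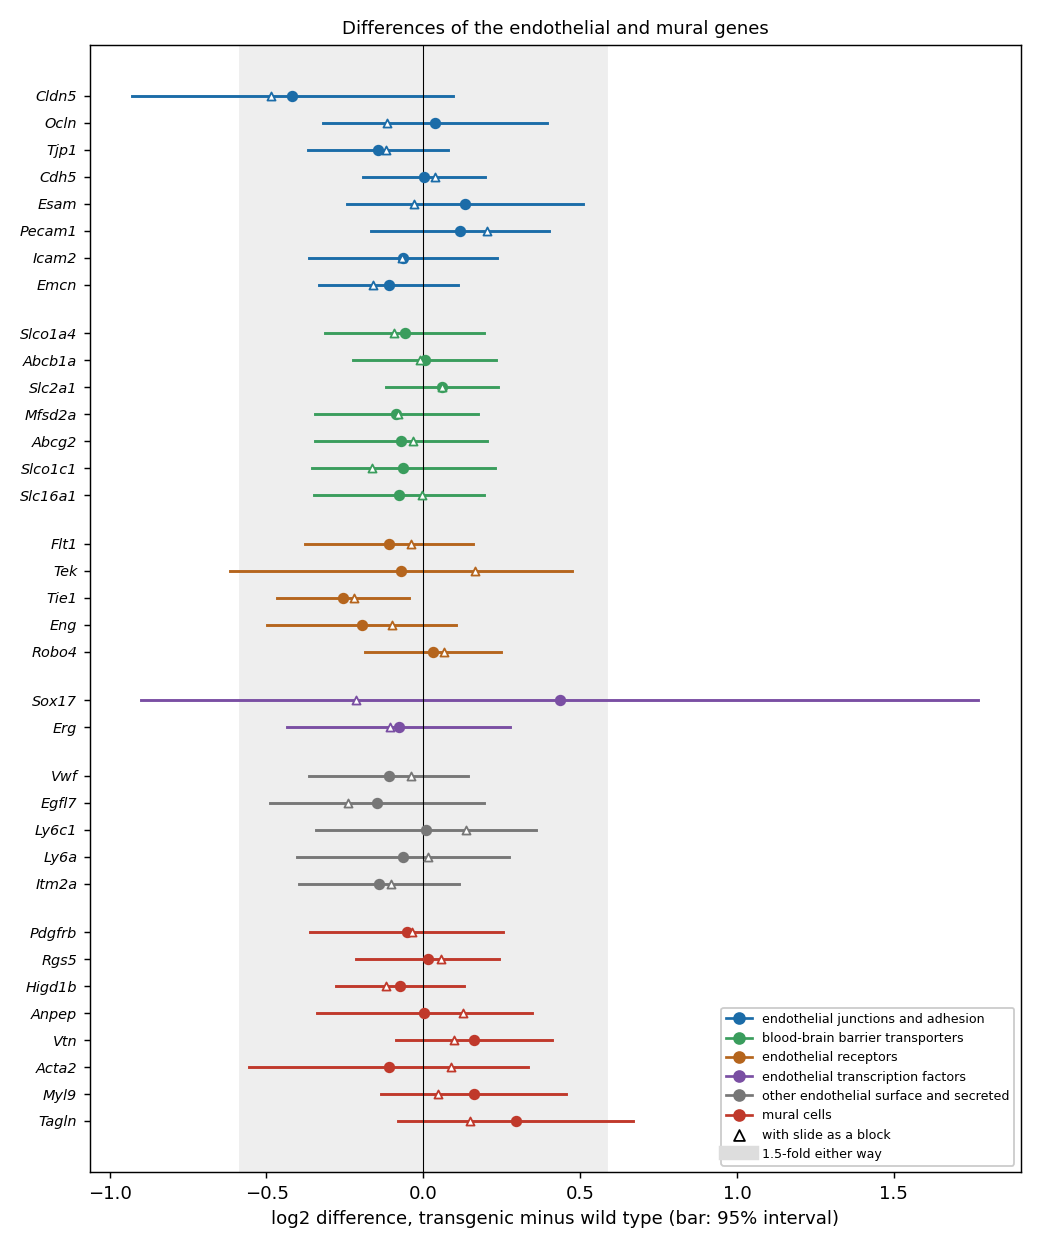
Log2 difference, transgenic minus wild type, of each of the 35 genes, coloured by role. Points are limma estimates from 3 transgenic and 3 wild-type arrays, bars are 95% intervals, triangles are the estimates with slide as a block, and the grey band spans 1.5-fold either way. Of the 35 bars, 31 lie inside the band, and those of Cldn5, Tek, Sox17 and Tagln leave it.

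Among the junction and adhesion genes, Cldn5, which encodes claudin-5, the main sealing protein of brain endothelial tight junctions, had the largest difference. Its log2 levels were 1.53, 2.21 and 2.18 in the transgenic samples, against 2.25, 2.52 and 2.39 in the wild-type samples. The 3 transgenic values lay below the 3 wild-type values, and transgenic replicate 1 lay farthest down. The difference was -0.42 ± 0.21 (SE, n = 3 per genotype, as below), with a 95% interval of -0.93 to 0.094 and a limma adjusted p of 0.817. It was -0.49 with slide as a block and -0.20 without transgenic replicate 1. Tjp1 encodes ZO-1, the scaffold that ties junction proteins to actin, and is made in other cell types too. Its log2 levels were 1.63, 1.71 and 1.59 in the transgenic samples, against 1.84, 1.86 and 1.67 in the wild-type samples. The groups overlapped, at a difference of -0.14 ± 0.091, and a second Tjp1 probe gave 0.054.

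Emcn, which encodes the sialomucin endomucin of capillaries and veins, had levels of 0.31, 0.24 and 0.30 in the transgenic samples, against 0.29, 0.51 and 0.38 in the wild-type samples. The highest value was that of wild-type replicate 2, and the difference was -0.11 ± 0.090. Esam, an adhesion molecule at endothelial contacts, had levels of 0.45, 0.48 and 0.51 in the transgenic samples, against 0.02, 0.53 and 0.49 in the wild-type samples. All its samples lay close together except wild-type replicate 1, which was the lowest. Its difference of 0.13 ± 0.15 became -0.029 with slide as a block. Occludin, encoded by Ocln, had the same outlying sample, with levels of -2.34, -2.38 and -2.35 in the transgenic samples, against -2.70, -2.21 and -2.27 in the wild-type samples. Its difference was 0.038 ± 0.15, or -0.11 with slide as a block. Cdh5, which encodes VE-cadherin of adherens junctions, gave 0.0023 ± 0.079, with a 95% interval of -0.19 to 0.20. Pecam1, the adhesion molecule PECAM-1 or CD31, gave 0.12 ± 0.12, and Icam2, an adhesion molecule that resting endothelium carries, gave -0.065 ± 0.12. Over these 8 genes 4 were higher and 4 lower.

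The 7 barrier transporter genes had the narrowest range of differences, from -0.086 for Mfsd2a to 0.060 for Slc2a1. Slc2a1 encodes the glucose transporter GLUT1, which astrocytes also make. Its log2 levels were 4.47, 4.42 and 4.49 in the transgenic samples, against 4.40, 4.41 and 4.38 in the wild-type samples. The transgenic values all lay above the wild-type values, but by at most a small fraction of a log2 unit, at a difference of 0.060 ± 0.073 and a 95% interval of -0.12 to 0.24. Mfsd2a, which encodes the carrier for lysophospholipids with docosahexaenoic acid and holds down vesicle transport across the endothelium, had levels of 1.59, 1.80 and 1.91 in the transgenic samples, against 1.87, 1.81 and 1.88 in the wild-type samples. Transgenic replicate 1 was the lowest, and without it the difference of -0.086 ± 0.11 was 0.00093. Slc16a1, the monocarboxylate transporter MCT1 of endothelium and oligodendrocytes, had levels of 2.16, 1.94 and 2.13 in the transgenic samples, against 2.30, 2.12 and 2.05 in the wild-type samples. The groups overlapped, at -0.078 ± 0.11.

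The efflux pump genes Abcb1a, for P-glycoprotein, and Abcg2 gave 0.0048 ± 0.093 and -0.072 ± 0.11. The organic anion carriers Slco1a4 and Slco1c1, the second of which carries thyroxine, gave -0.059 ± 0.10 and -0.063 ± 0.12. A second Slco1c1 probe gave -0.11. All 7 transporter genes had 95% intervals inside a 1.5-fold change, the widest reaching -0.35 for Slco1c1. With slide as a block 1 of them was higher, Slc2a1 at 0.059.

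The 5 receptor genes included Tie1, the orphan receptor that partners the angiopoietin receptor, with the lowest p of the 35 genes. Its log2 levels were -2.22, -2.29 and -2.37 in the transgenic samples, against -1.97, -2.03 and -2.11 in the wild-type samples. Every transgenic value lay below every wild-type value. The difference was -0.26 ± 0.086, a fold of 0.837 transgenic over wild type, with a 95% interval of -0.47 to -0.044, a limma p of 0.026 and an adjusted p of 0.769. It was -0.22 with slide as a block and -0.29 without transgenic replicate 1. Eng encodes endoglin, a co-receptor for TGF-beta family ligands, and had levels of -1.43, -1.20 and -1.22 in the transgenic samples, against -0.90, -1.18 and -1.19 in the wild-type samples. The groups did not overlap, but transgenic replicates 2 and 3 lay within 0.05 of wild-type replicates 2 and 3. Its difference was -0.20 ± 0.12, or -0.10 with slide as a block.

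Flt1, which encodes VEGF receptor 1, had levels of 3.32, 3.26 and 3.22 in the transgenic samples, against 3.52, 3.42 and 3.20 in the wild-type samples. The groups overlapped, at -0.11 ± 0.11, and its other tested probes gave -0.22 and -0.077. A further Flt1 probe was well above background on 0 arrays. Tek encodes the angiopoietin receptor TIE2, and its levels were -1.99, -2.12 and -2.06 in the transgenic samples, against -1.51, -2.08 and -2.37 in the wild-type samples. Its wild-type samples spread over a wider range than its transgenic samples, which all lay between the wild-type extremes. The difference was -0.072 ± 0.22, or 0.17 with slide as a block. Robo4, an endothelial member of the roundabout receptor family, gave 0.031 ± 0.088.

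The endothelial transcription factor gene Sox17, which acts in arterial identity, had levels of 1.59, 1.496 and 1.599 in the transgenic samples, against -0.17, 1.73 and 1.82 in the wild-type samples. Wild-type replicate 1 was far below the other 5 samples, which lay close to one another. The difference was 0.44 ± 0.54 with a 95% interval of -0.90 to 1.77, and -0.21 with slide as a block (limma adjusted p = 0.546). The second Sox17 probe shown above had levels of -4.57, -4.53 and -4.80 in the transgenic samples, against -5.64, -4.18 and -5.38 in the wild-type samples. On it both wild-type replicates 1 and 3 were low, and its difference was 0.43. This is a dim probe, well above background on 5 arrays, of which 2 were wild-type. Another probe named Sox17, on the opposite strand, was well above background on 1 array and was not tested. Erg, an ETS factor that maintains endothelial identity, had levels of -3.55, -3.14 and -3.45 in the transgenic samples, against -3.36, -3.13 and -3.43 in the wild-type samples. The groups overlapped, at -0.078 ± 0.14.

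Of the 5 remaining endothelial genes, Itm2a, which encodes a membrane protein, had levels of 2.24, 2.38 and 2.46 in the transgenic samples, against 2.58, 2.56 and 2.37 in the wild-type samples. The difference was -0.14 ± 0.10 and the groups overlapped. Vwf, for von Willebrand factor, the clotting protein stored by endothelium, had levels of 0.21, 0.35 and 0.38 in the transgenic samples, against 0.57, 0.37 and 0.34 in the wild-type samples. Transgenic replicate 1 was its lowest and wild-type replicate 1 its highest sample, at a difference of -0.11 ± 0.10. Egfl7 encodes a protein that endothelium secretes into the vessel matrix, and its levels were 3.10, 3.39 and 3.42 in the transgenic samples, against 3.27, 3.62 and 3.47 in the wild-type samples. Its difference of -0.15 ± 0.14 was -0.045 without transgenic replicate 1.

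Ly6c1 and Ly6a encode small membrane-anchored proteins of the Ly6 family that mouse brain endothelium carries. Ly6c1 had levels of 3.87, 3.85 and 4.06 in the transgenic samples, against 4.17, 3.72 and 3.86 in the wild-type samples on the probe that resembles Ly6c2. The difference was 0.0089 ± 0.14, and on the second Ly6c1 probe it was 0.046. The Ly6c2 probe itself gave -0.0092, so none of the 3 probes separated the genotypes. Ly6a had levels of 1.42, 1.66 and 1.65 in the transgenic samples, against 1.80, 1.40 and 1.72 in the wild-type samples. Its samples were interleaved, at a difference of -0.064 ± 0.14.

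**Figure D2:**
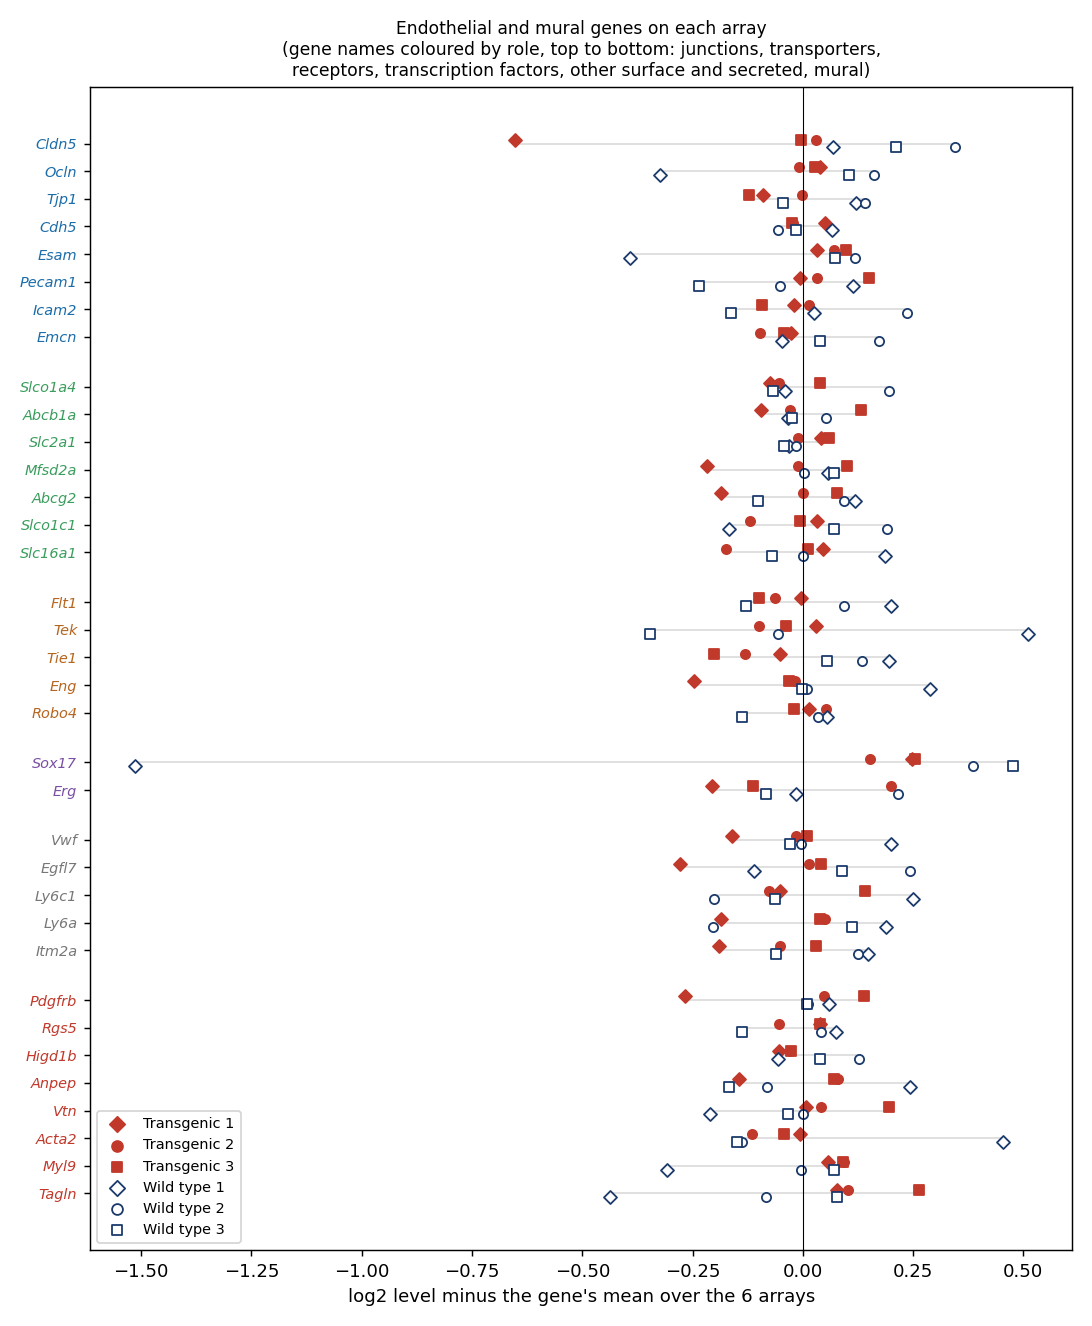
Log2 level of each of the 35 genes on each array, minus the gene's own mean over the 6 arrays. Filled red symbols are the transgenic and open blue symbols the wild-type samples, with 1 shape per replicate number. Wild-type replicate 1 is far left for Sox17, and transgenic replicate 1 is far left for Cldn5.

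The 8 mural genes divided into 5 higher and 3 lower, with a median difference of 0.0091, or 0.072 with slide as a block. The pericyte genes lay near 0. Pdgfrb, the receptor for the platelet-derived growth factor that recruits pericytes, gave -0.053 ± 0.12. Rgs5, a regulator of G-protein signalling, gave 0.015 ± 0.093, and Anpep, the surface peptidase CD13, gave 0.0037 ± 0.14. Higd1b, a pericyte gene of the hypoxia-inducible domain family, gave -0.074 ± 0.083. All 4 had 95% intervals inside a 1.5-fold change, and none had separated groups. Vtn, which encodes the matrix protein vitronectin that pericytes secrete in the brain, had levels of 3.12, 3.16 and 3.31 in the transgenic samples, against 2.91, 3.12 and 3.08 in the wild-type samples. Its groups did not overlap, at 0.16 ± 0.10, with wild-type replicate 1 the lowest sample, and the difference was 0.097 with slide as a block.

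The contractile genes of smooth muscle gave differing directions without the slide block and were all higher with it. Tagln, which encodes the actin-binding protein transgelin or SM22, had levels of 1.32, 1.34 and 1.504 in the transgenic samples, against 0.80, 1.16 and 1.32 in the wild-type samples. Wild-type replicate 1 was the lowest, at a difference of 0.30 ± 0.15 (limma adjusted p = 0.817) and 0.15 with slide as a block. Myl9, a regulatory myosin light chain, had levels of 2.83, 2.87 and 2.87 in the transgenic samples, against 2.47, 2.77 and 2.85 in the wild-type samples. It showed the same low sample, at 0.16 ± 0.12, or 0.046 with slide as a block. Acta2, for smooth muscle alpha-actin, had levels of 2.12, 2.01 and 2.09 in the transgenic samples, against 2.58, 1.99 and 1.98 in the wild-type samples. Here wild-type replicate 1 was the highest, at a difference of -0.11 ± 0.18, or 0.088 with slide as a block.

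Acta2 was read by 3 tested probes that placed wild-type replicate 1 differently. On the probe used above, whose bases map over a span of 3255 bases, that sample was the highest of the 6. On the probe at chr19:34316060-34316119 the levels were 0.82, 0.72 and 0.63 in the transgenic samples, against 0.31, 0.72 and 0.77 in the wild-type samples. On the probe at chr19:34315697-34315756 they were -4.21, -4.21 and -4.10 in the transgenic samples, against -4.94, -4.27 and -4.09 in the wild-type samples. Wild-type replicate 1 was the lowest on both of these, and the other 5 samples lay within 0.2 of one another on each. The differences on these probes were 0.12 and 0.26. A further Acta2 probe was well above background on 0 arrays.

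Dim second probes of 2 other genes also turned on wild-type replicate 1. The second Higd1b probe had levels of -3.30, -3.36 and -3.33 in the transgenic samples, against -6.93, -3.20 and -3.31 in the wild-type samples, well above background on every array but that of wild-type replicate 1. Its difference of 1.15 rests on that sample, as the other 5 lay together. Vwf had further probes with differences of 0.097 and 0.66, each well above background on 5 arrays, and wild-type replicate 1 was the lowest sample on the second of these. Of the 53 probes, 46 were tested, 42 were well above background on all 6 arrays and 5 on 0 arrays. When each of 38463 tested probes was fitted by itself, 0 of the 46 were called by limma, where 0.0286% of all probes were.

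**Figure D3:**
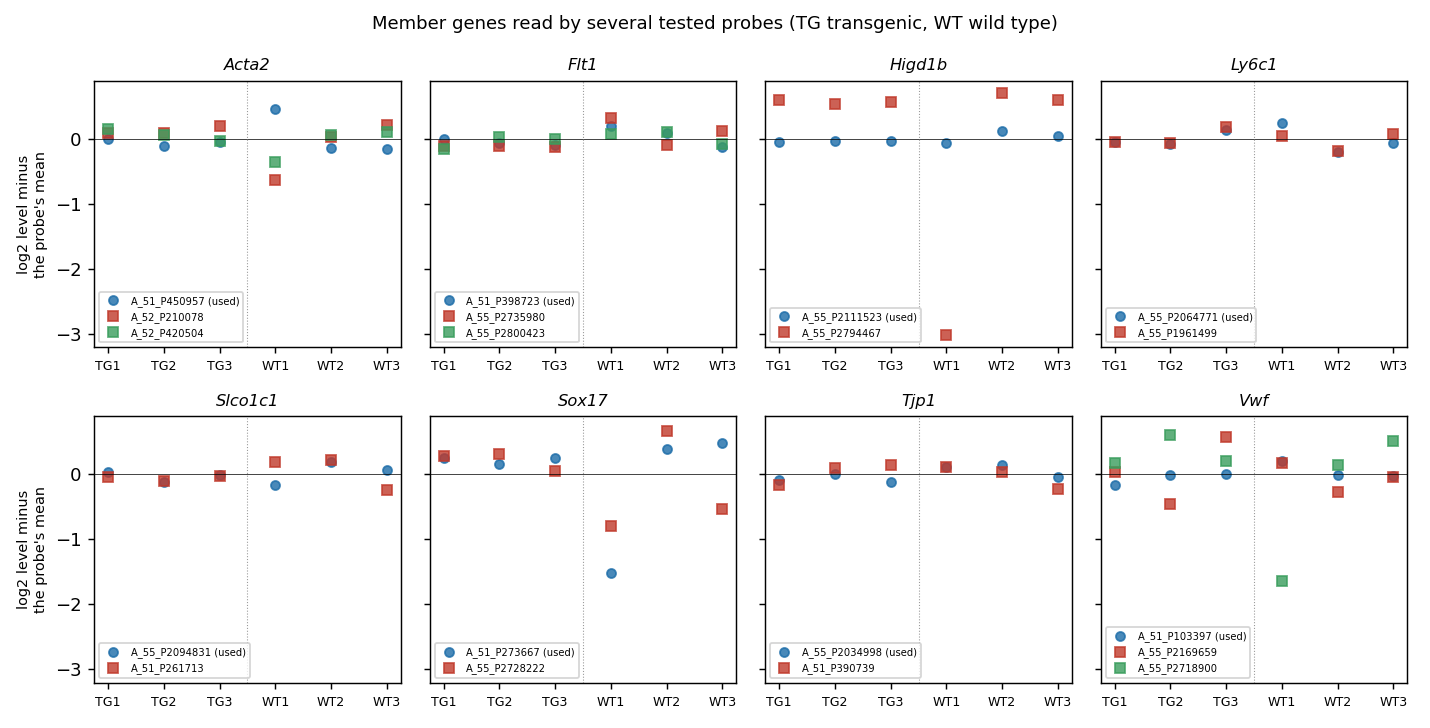
Log2 level on each array, minus the probe's mean, for the 8 genes read by more than 1 tested probe, with transgenic samples left of wild-type samples in each panel. The blue probe is the one used for the gene. The probes of Ly6c1 lie closer together than those of Acta2 and Higd1b, which part widely on wild-type replicate 1. That sample is the highest on the used Ly6c1 probe but not on the other.

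The lowest and highest values of the vascular genes were spread unevenly over the arrays. Transgenic replicate 1 held the lowest value of the 6 samples for 11 of the 35 genes (31.4%), against 12.7% of all genes, and the highest for none of the 35. These 11 were Cldn5, Slco1a4, Abcb1a, Mfsd2a, Abcg2, Eng, Erg, Vwf, Egfl7, Itm2a and Pdgfrb. The highest value fell on wild-type replicate 1 for 15 genes (42.9%), against 32.7% of all genes, and on wild-type replicate 2 for 11 genes (31.4%), against 10.97% of all genes. It fell on transgenic replicate 3 for 7 genes, against 18.9% of all genes, and on transgenic replicate 2 and wild-type replicate 3 for 1 gene each. The lowest value fell on wild-type replicate 3 for 9 genes (25.7%), against 12.2% of all genes, and on wild-type replicate 1 for 8 (22.9%), against 33.2%. The mean log2 level over the 27 endothelial genes was 0.68, 0.75 and 0.78 in the transgenic samples, against 0.76, 0.85 and 0.75 in the wild-type samples. These ranges overlapped. Over the 8 mural genes the mean level was 1.29, 1.35 and 1.42 in the transgenic samples, against 1.30, 1.31 and 1.29 in the wild-type samples. Of the 27 endothelial genes 9 were higher and 18 lower, with a median difference of -0.072. With slide as a block 7 were higher, and the median was -0.068. Without transgenic replicate 1 the median difference over the 35 genes was -0.0011. It was then -0.037 over the 27 endothelial genes and 0.072 over the 8 mural genes.

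**Figure D4:**
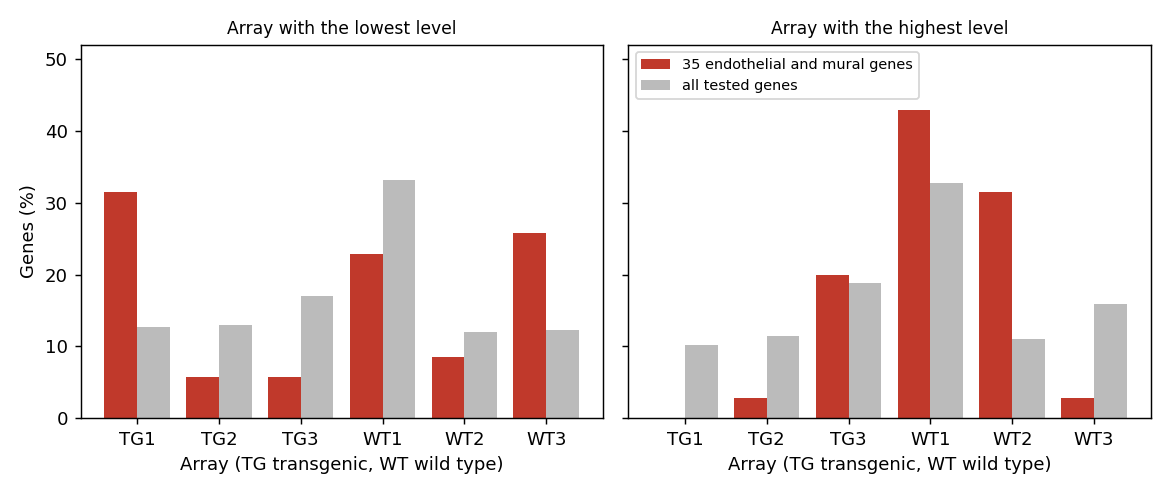
Share of genes, in percent, whose lowest value (left panel) or highest value (right panel) fell on each array, for the 35 endothelial and mural genes in red and all tested genes in grey. Transgenic replicate 1 holds the lowest value for 31.4% of the vascular genes and 12.7% of all genes.

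The neighbouring pathways were read through 7 further lists with 132 tested genes. In these, 77 genes were higher and 55 lower, 1 was called by limma against 0.0441% of all genes, and 10 had an unadjusted p under 0.05 against 5.86% of all genes. The called gene was Kdr, which encodes VEGF receptor 2, the main signalling receptor for VEGF-A on endothelium. Its log2 levels were 2.69, 2.98 and 3.57 in the transgenic samples, against -0.30, -0.06 and -0.43 in the wild-type samples. The groups were far apart, at 3.35 ± 0.24 (limma adjusted p = 0.0271), and the lowest transgenic value lay well above the highest wild-type value. The call was kept under 6 of 14 alternative settings. It was lost with slide as a block (log2 difference 3.33, limma adjusted p = 0.0818), with no filter on dim probes (adjusted p = 0.0643) and when any single sample was left out (adjusted p = 0.0615 to 0.188). These settings are not all distinct. Slide as a block and leaving out wild-type replicate 1 both gave 3.33. Quantile normalization and the authors' value table, nearly the same values, both gave 3.36 and kept the call. The log2 difference stayed between 3.10 and 3.54 over the 14 settings. This rests on 1 probe at chr5:76329309-76329368, as 2 further Kdr probes were well above background on 0 arrays. The receptors beside it in the pathway did not share its size: Flt1 had -0.11 and Tek -0.072, and Nrp2, a VEGF co-receptor, 0.17 ± 0.074. Of the 23 tested ligands and receptors of the VEGF, angiopoietin, Notch and TGF-beta pathways, 16 were higher, with a median of 0.058. The ligand gene Tgfb1 had 0.25, or -0.0059 with normexp background correction.

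A list for endothelial activation and leukocyte adhesion had 15 of 17 tested genes higher, or 13 with slide as a block, with a median of 0.14 in both fits, and none was called. At an unadjusted limma p under 0.05 there were 4 genes, all higher, against 3.15% of all genes in that direction. The groups did not overlap for 4 genes, also all higher, against 7.4% of all genes. The receptor gene Il1r1 had 0.10, or 0.34 with slide as a block. The receptor gene Tnfrsf1a had 0.35 ± 0.11, or 0.32 with that block, and its groups did not overlap. The list mixes adhesion and response genes with receptors that resting endothelium carries, such as Il1r1, and with genes that inflammation is known to turn down. Among the last, Procr, the protein C receptor, had -0.46 ± 0.24, the thrombomodulin gene Thbd -0.018 and the nitric oxide synthase gene Nos3 0.059. Selp, which encodes P-selectin, had 1.15 ± 1.24, or -0.34 with slide as a block, and Madcam1 had 1.57 ± 1.22, or 0.10. Neither was well above background on the array of wild-type replicate 1. Ch25h, which encodes cholesterol 25-hydroxylase, had levels of -2.55, -2.54 and -1.72 in the transgenic samples, against -3.26, -4.01 and -3.92 in the wild-type samples. The groups did not overlap, at 1.46 ± 0.31 (limma adjusted p = 0.366). Icam1, the adhesion molecule for leukocytes, gave 0.46 ± 0.13 (limma adjusted p = 0.640). These are dim probes, and with normexp background correction the differences were 0.70 for Ch25h and 0.16 for Icam1. Cells other than endothelium also make both products. Icam2, the adhesion gene among the 35 that is carried at rest, had -0.065.

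Genes of the Wnt/beta-catenin programme, which glial Wnt ligands drive in barrier endothelium, were higher for 8 of 18, with a median of -0.050, or 6 of 18 and -0.038 with slide as a block, and 0 calls. Tspan12, a co-activator of the norrin receptor complex, had -0.20 ± 0.099, the ligand gene Wnt7a -0.19 ± 0.099 and the co-receptor gene Lrp5 0.44 ± 0.24. With slide as a block they had -0.14, -0.12 and 0.17. Wild-type replicate 1 was the lowest Lrp5 sample, at -0.91. Among 19 further transporter and junction genes 6 were higher, with a median of -0.073 and 0 calls. F11r, which encodes junctional adhesion molecule A, had 0.43 ± 0.18, the glutamine carrier gene Slc38a5 -0.18 ± 0.091 and the paracingulin gene Cgnl1 -0.23 ± 0.14. With slide as a block 10 of these 19 were higher, and the median was 0.0012.

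Of 25 further endothelial genes 10 were higher, with a median of -0.055 and 0 calls. With slide as a block 12 were higher, and the median was -0.013. The 3 with an unadjusted p under 0.05 were all lower, against 2.71% of all genes in that direction. Podxl, the sialomucin podocalyxin, had -0.36 ± 0.10 (limma adjusted p = 0.664), Cxcl12, a chemokine, -0.27 ± 0.085 (adjusted p = 0.717), and Car4, the carbonic anhydrase on the capillary surface, -0.36 ± 0.12 (adjusted p = 0.746). Their groups did not overlap, and the differences were -0.28, -0.24 and -0.36 with slide as a block. Over the 25 genes, the groups did not overlap for 6 that were lower and 2 that were higher, against 7.5% and 7.4% of all genes.

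Of 18 further pericyte and smooth muscle genes 11 were higher, with a median of 0.11, or 0.031 with slide as a block, and 0 calls. Mylk, the myosin light chain kinase of smooth muscle, had levels of -0.60, -0.59 and -0.49 in the transgenic samples, against -1.06, -0.87 and -0.82 in the wild-type samples. The groups did not overlap, at 0.36 ± 0.097 (limma adjusted p = 0.617), and 0.29 with slide as a block. The pericyte potassium channel gene Kcnj8 had -0.16 ± 0.080 and the receptor gene P2ry14 0.23 ± 0.12. Of 12 vascular basement membrane genes 11 were higher, or 6 with slide as a block, with a median of 0.039, or 0.0016 with that block, and 0 calls. Lamc1, the laminin gamma-1 chain, had 0.30 ± 0.098 (limma adjusted p = 0.752), the collagen IV gene Col4a1 0.22 ± 0.15 and Lama4, the laminin alpha-4 chain, 0.12 ± 0.12. Flt4, Sele, Myocd and Lmod1 were on the array but were not well above background in all samples of either genotype.

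**Figure D5:**
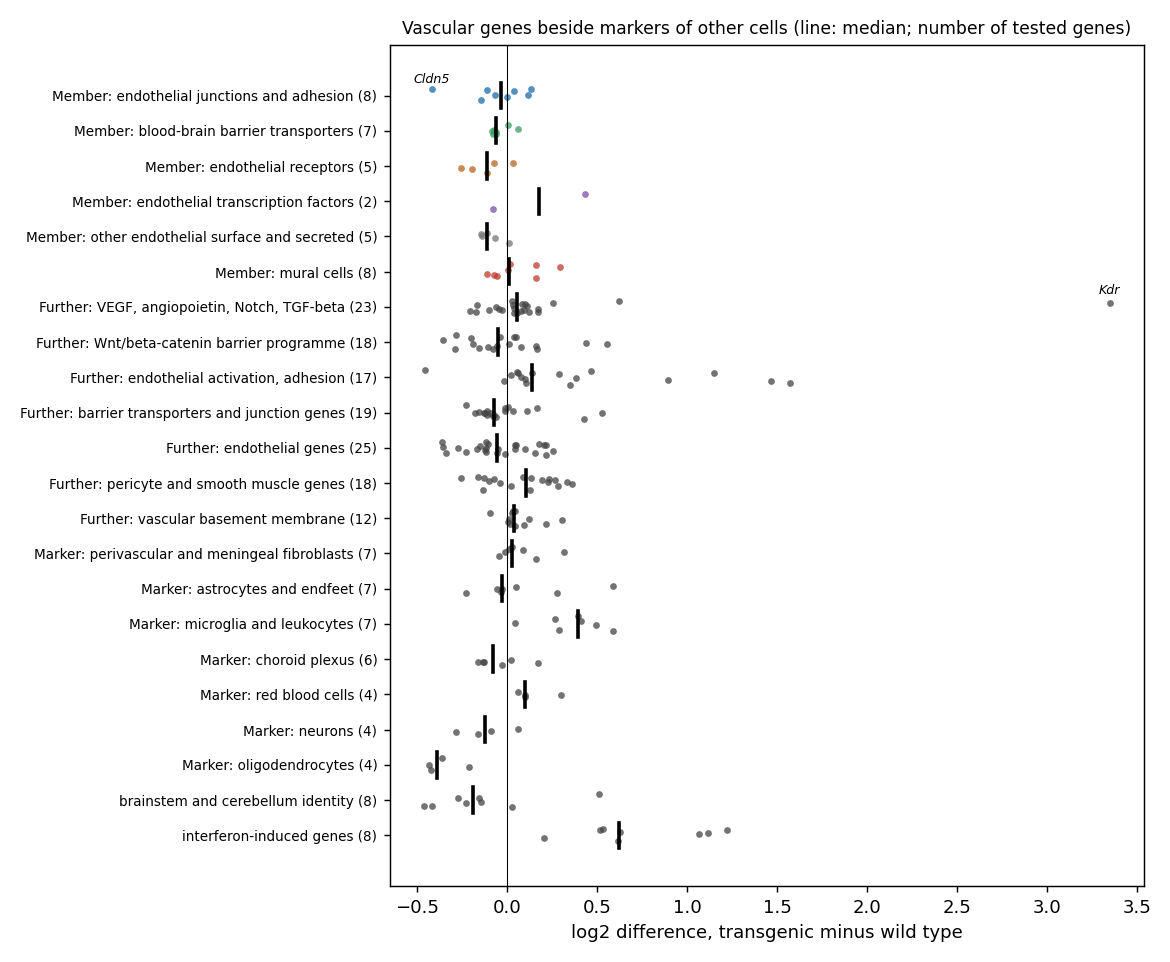
Log2 difference, transgenic minus wild type, of single genes (points), by list, with the list's median as a black bar and the number of tested genes in brackets. The 6 lists at the top hold the 35 endothelial and mural genes, followed by further vascular lists, markers of other cells, genes of hindbrain identity and interferon-induced genes. Kdr at 3.35 lies farthest to the right of all points.

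The vascular levels were set beside markers of the other cells in the dissection, and the part of those cells in the vascular values was not tested. Microglial and leukocyte markers had a positive difference for all 7, or for 5 of 7 with slide as a block. Their median was 0.40, or 0.25 with that block, and their mean log2 level was 1.18 to 1.28 in the transgenic samples and 0.55 to 1.03 in the wild-type samples. All 4 oligodendrocyte markers were lower in both fits, with a median of -0.39, or -0.42 with slide as a block, and a mean level of 4.24 to 4.27 in the transgenic samples and 4.48 to 4.69 in the wild-type samples. The 4 red blood cell markers had a median of 0.098, or 0.36 with slide as a block. Their mean level was 1.59, 1.80 and 1.89 in the transgenic samples, against 1.96, 1.45 and 1.45 in the wild-type samples, so wild-type replicate 1 had the highest. The 7 astrocyte markers ranged from -0.23 for Slc1a2 to 0.59 for Gfap, with a median of -0.029, or 0.063 with slide as a block. The median of 7 markers of perivascular and meningeal fibroblasts was 0.028, or 0.087 with that block. It was -0.076, or -0.057 with slide as a block, for 6 choroid plexus markers, and -0.12, or -0.081, for 4 of neurons. The 8 genes of brainstem and cerebellum identity were well above background on all 6 arrays. Of these, 6 were lower, 2 of them with non-overlapping groups, against 7.5% of all genes. Their median was -0.19, or -0.18 with slide as a block, and they ranged from -0.46 for Hoxb3, a gene of hindbrain position, to 0.51 for Zic2, a factor of cerebellar granule cells. None of these markers was called by limma.

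Ly6a and Ly6c1 are induced by interferon in mice, so 8 interferon-induced genes were read beside them. All 8 were higher, 7 of them with non-overlapping groups, which 7.4% of all genes showed in that direction, and their median difference was 0.62. Their mean log2 level was -0.48 to -0.22 in the transgenic samples and -1.12 to -0.99 in the wild-type samples. None was called, the lowest limma adjusted p being 0.0542 for Oas1a at 1.06 ± 0.092. Ly6a had -0.064 ± 0.14, with a 95% interval of -0.40 to 0.27, and Ly6c1 0.0089 ± 0.14, with an interval of -0.34 to 0.36. Both intervals ended below the median of the 8 genes.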

How the data were processed

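Total RNA was labelled with Cy3 and hybridised to single-colour arrays, 1 per sample. Per the file headers, Feature Extraction 10.7.1.1 read the arrays under protocol GE1_107_Sep09 and placed probes on mm9, while the submitters' processing notes name version 9.5.1.1. The deposited spot values are background-subtracted intensity values on a linear scale, per the file headers. A second deposited table holds the authors' processed intensity values. Its columns equalled a quantile normalization of the probe averages for at least 99.986% of values (within 0.01 log2, column median 59.9), and it served as an alternative.

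From these, log2 of the processed signal minus log2 of the array's 75th percentile was computed. Control spots and outlier spots (39 to 84 on each array) were dropped, replicate spots of a probe averaged, and 0 spots were saturated. Probes were named through RefSeq (GRCm38.p6, names only) by accession (32994), symbol (10224) or synonym (520), and 12867 kept the files' name. A probe was tested where every array of 1 genotype or both had it well above background, and the brightest tested probe stood for its gene. Genotypes were compared with limma 3.58.1 (R 4.3.3), p-values were adjusted over 24932 genes by the Benjamini-Hochberg method, and a call is an adjusted p under 0.05. The code was tested on simulated data. The number of arrays limits the precision.

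All 35 genes are named whatever their values, those with the smallest p of each role with their sample values, and of each further list the called gene and otherwise up to 3 genes with the smallest p, some of which are not reported here. Oas1a, Ly6c2, Il1r1, Tnfrsf1a, Procr, Thbd, Nos3, Selp, Madcam1, Hoxb3, Zic2, Gfap, Slc1a2 and Nmu were named after their values were seen. The genes and lists were chosen with earlier results of these data known, so no test was made over a list. The alternatives covered background correction (normexp, offset 50 units), normalization, the filter on dim probes, the value table, the probe per gene, slide, array weights, thresholds and leaving out each sample. Replicate numbers only name samples.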

Additional observations from a re-analysis of the deposited data

How the results depend on the processing

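None of the 35 genes was called by limma under any of the 14 alternatives fitted per gene, with each probe tested by itself or at an adjusted p under 0.1, and the lowest adjusted p was 0.380. At an unadjusted p under 0.05 there was 1 gene. The median difference over the 35 genes lay between -0.076 and -0.0011 when a sample was left out, the value nearest 0 being that without transgenic replicate 1, and between -0.064 and -0.037 under the other alternatives. The alternatives are not all distinct. For the 35 genes, slide as a block gave the same log2 differences as leaving out wild-type replicate 1, so its sign changes count in both. The authors' value table nearly repeats quantile normalization. Of 490 gene values under alternatives, 54 had the opposite sign to the value reported, over 22 genes, none of them called under any setting. With slide as a block these were -0.11 for Ocln, -0.029 for Esam, -0.011 for Abcb1a, 0.17 for Tek, -0.21 for Sox17, 0.014 for Ly6a and 0.088 for Acta2, and with array weights -0.10 for Ocln, -0.019 for Esam, -0.039 for Abcb1a, 0.12 for Tek, -0.15 for Sox17, 0.016 for Ly6a and 0.060 for Acta2. With normexp they were -0.059 for Ocln, -0.0040 for Cdh5 and -0.029 for Pecam1, with quantile normalization -0.0011 for Cdh5, and with the authors' value table -0.0012 for Cdh5. With all tested probes of a gene averaged they were 0.21 for Vwf, 0.54 for Higd1b and 0.091 for Acta2. When a sample was left out, the sign changed for 19 genes, with ranges of -0.11 to 0.13 for Ocln, -0.025 to 0.036 for Cdh5, -0.029 to 0.23 for Esam, -0.16 to 0.037 for Icam2, -0.11 to 0.024 for Slco1a4, -0.060 to 0.054 for Abcb1a, -0.16 to 0.00093 for Mfsd2a, -0.14 to 0.0026 for Abcg2, -0.16 to 0.017 for Slco1c1, -0.26 to 0.17 for Tek, -0.029 to 0.067 for Robo4, -0.21 to 0.78 for Sox17, -0.20 to 0.0099 for Erg, -0.090 to 0.14 for Ly6c1, -0.18 to 0.014 for Ly6a, -0.14 to 0.067 for Pdgfrb, -0.050 to 0.056 for Rgs5, -0.079 to 0.13 for Anpep and -0.21 to 0.088 for Acta2. The cause of these changes was not tested. No paired analysis was possible because the labels give no replicate numbers shared between the genotypes, each sample having its own title number, and do not say that any samples are related.

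The precision is limited by 3 arrays per genotype, of which wild-type replicate 1 was the sole array of its slide, so the slide block leaves 2 wild-type samples. Signals near background are compressed by the normexp offset of 50 units. The measurements come from whole tissue, in which some of the 35 genes are also expressed outside vessels.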
